A study of Homo sapiens with 4 samples.

Results

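Trimethylation of histone H4 at lysine 20 (H4K20me3) was examined here over 5 gene families that multiplied by duplication in primates, namely PRAMEF, NBPF, TBC1D3, NPIP and SPATA31. Members were the protein-coding genes on chromosomes 1 to 22 whose symbol starts with one of these names in GENCODE release 44 mapped to GRCh37, and 83 of 19229 coding genes met this rule. There were 23 PRAMEF, 14 NBPF, 14 TBC1D3, 19 NPIP and 13 SPATA31 genes. The rule also took in TBC1D30, TBC1D31 and TBC1D32, which share the start of the symbol but are not copies of TBC1D3, and these 3 genes are described apart. The remaining 11 TBC1D3 gene models all lie on chromosome 17 and are called the TBC1D3 copies.

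The mark had been mapped by ChIP-seq in IMR90, a line of primary diploid human lung fibroblasts that stops dividing after long culture. Proliferating cells at population doubling 32 (PRO) and cells at population doubling 86 in replicative senescence (RS) were each profiled with 2 antibodies, 1 from Millipore and 1 from Cell Signaling Technology, which gave 4 samples of the same line. The 2836 PRO peaks (3.44 Mb) and 35535 RS peaks (38.1 Mb) are domains that both antibodies gave, and the 18711 DiffBind regions (34.6 Mb) are places where the signal of PRO and RS cells was called different. The lists hold positions alone, so no value has a replicate error, no difference between PRO and RS was tested, the lists carry no read depth, the direction of a DiffBind region is not given, and the identity of the cells could not be checked against markers.

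H4K20me3 is a mark of silent chromatin. It is written by the SUV420H enzymes, largely where H3K9me3 and its reader HP1 are already bound, and is best known from the repeats around centromeres. The 5 families arose by segmental duplication, the copying of long blocks of sequence to nearby or distant places. PRAMEF genes encode leucine-rich repeat proteins related to PRAME, an antigen of testis and tumours. NBPF genes carry tandem Olduvai domains, whose number rose in the human lineage. TBC1D3 encodes a protein with a TBC domain, a fold found in proteins that act on Rab GTPases. NPIP genes belong to a fast-evolving family related by name to the nuclear pore, and SPATA31 genes are named for their link to spermatogenesis. Copies of such genes can be nearly identical, so that a short sequencing read cannot always be placed at the copy it came from.

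The sequences below show how alike the copies are. The first set comes from an intron of TBC1D3, in a stretch of 120 bases chosen because it lay inside RS peaks in 5 of the 6 copies of the gene found at the members and held the most positions that differ among these copies and the pseudogenes TBC1D3P1 and TBC1D3P2. The sequence is from GRCh37, written in the direction of the gene, with capitals where a copy differs from TBC1D3K. The position is chr17:36289170-36289289 (plus strand) in TBC1D3K and TBC1D3F, chr17:36343337-36343456 (minus) in TBC1D3L, chr17:34751722-34751841 (minus) in TBC1D3H and TBC1D3C, chr17:34802773-34802892 (minus) in the 5′ part of TBC1D3G, chr17:34498666-34498785 (minus) in TBC1D3B and TBC1D3E, and chr17:34586710-34586829 (minus) in TBC1D3I and TBC1D3D. The pseudogenes TBC1D3P1 (chr17:58091153-58091272, minus) and TBC1D3P2 (chr17:60347730-60347849, minus) carry the same stretch with 5 differences.
TBC1D3K, TBC1D3F and TBC1D3L: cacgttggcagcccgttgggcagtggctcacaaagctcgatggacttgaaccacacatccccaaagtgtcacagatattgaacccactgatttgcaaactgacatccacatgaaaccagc
TBC1D3H, TBC1D3C and the 5′ part of TBC1D3G: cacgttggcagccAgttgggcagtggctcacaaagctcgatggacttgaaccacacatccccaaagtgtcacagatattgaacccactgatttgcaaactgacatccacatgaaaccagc
TBC1D3B, TBC1D3E, TBC1D3I and TBC1D3D: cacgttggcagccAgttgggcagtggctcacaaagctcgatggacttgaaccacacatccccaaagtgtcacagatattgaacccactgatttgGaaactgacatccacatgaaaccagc
TBC1D3P1 and TBC1D3P2: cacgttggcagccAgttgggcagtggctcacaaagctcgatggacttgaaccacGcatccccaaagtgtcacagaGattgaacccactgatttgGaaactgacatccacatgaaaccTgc

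All 120 bases lay in RS peaks at TBC1D3K/F, TBC1D3L, TBC1D3H/C, TBC1D3B/E and TBC1D3I/D. At the 5′ part of TBC1D3G, whose letters are those of TBC1D3H/C, 0 bases lay in an RS peak and 120 in a DiffBind region. At the pseudogenes 0 bases lay in RS peaks, while 120 bases of TBC1D3P1 and 0 of TBC1D3P2 lay in a DiffBind region. Copies with the same letters in this stretch thus differed in the RS list.

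The second set comes from the coding sequence of the SPATA31A genes on chromosome 9. These 120 bases were chosen because they lay inside RS peaks in 3 of 7 genes, which are all the SPATA31A genes with an RS peak. Capitals mark differences from SPATA31A6. The first sequence is found at chr9:39360371-39360490 (plus) in SPATA31A1, chr9:39889622-39889741 (plus) in SPATA31A2 and chr9:43625971-43626090 (minus) in SPATA31A6. The second lies at chr9:40704952-40705071 (plus) in SPATA31A3, chr9:41505337-41505456 (plus) in SPATA31A5 and chr9:65504832-65504951 (minus) in SPATA31A7. The third is that of SPATA31A4, at chr9:41322576-41322695 (minus).
SPATA31A1, SPATA31A2 and SPATA31A6: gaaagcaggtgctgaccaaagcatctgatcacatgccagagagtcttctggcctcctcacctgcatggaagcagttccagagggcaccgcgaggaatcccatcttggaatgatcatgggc
SPATA31A3, SPATA31A5 and SPATA31A7: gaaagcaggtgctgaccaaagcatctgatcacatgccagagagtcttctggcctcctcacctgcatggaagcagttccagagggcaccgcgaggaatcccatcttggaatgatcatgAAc
SPATA31A4: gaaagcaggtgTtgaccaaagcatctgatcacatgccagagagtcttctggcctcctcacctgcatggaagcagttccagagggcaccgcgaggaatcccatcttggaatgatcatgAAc

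By this choice the stretch lay in RS peaks in SPATA31A1, SPATA31A4 and SPATA31A6. In SPATA31A6 it also lay in a PRO peak. It lay in no list in SPATA31A2, although its 120 bases are those of SPATA31A1 and SPATA31A6.

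To ask how far recent duplication went with the mark, coverage of the gene bodies was first compared by family. RS peaks overlapped 21 of 83 members (25.3%) by at least 1 base, against 20.8% of the other 19146 coding genes. PRO peaks overlapped 12 members (14.5%), against 4.02% of other coding genes, and DiffBind regions overlapped 19 (22.9%), against 18.0%. The RS and DiffBind shares were thus near the background. No list touched 53 of the 83 genes. Members were shorter than other coding genes, with a median body of 10945 and 27710 bp respectively, so the bases covered were compared as well. RS peaks held 2.27% of the bases of member bodies and 0.982% of those of other coding genes. PRO peaks held 0.817% and 0.0555%, and DiffBind regions held 4.75% and 1.05%. No test was made of these shares, since each state has 1 list and genes of a family share sequence and position.

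The families differed widely from each other. TBC1D3 copies were overlapped by RS peaks in 11 of 11 gene models. The counts were 5 of 23 for PRAMEF (21.7%), 3 of 13 for SPATA31 (23.1%), 1 of 14 for NBPF (7.14%) and 0 of 19 for NPIP. Of other coding genes 20.8% had an RS peak, so by count PRAMEF and SPATA31 were near the background. In bases, the RS share was 25.3% in the TBC1D3 copies, 6.75% in PRAMEF, 4.33% in SPATA31, 0.286% in NBPF and 0% in NPIP. Outside the TBC1D3 family, 9 of 69 members had an RS peak (13.0%), against 20.8% of other coding genes. The order was different in PRO, where SPATA31 (3.88%, all of it in SPATA31A6) and PRAMEF (3.11%) led, NBPF (1.07%) and NPIP (0.258%) followed and the TBC1D3 copies had 0%. In DiffBind regions the TBC1D3 copies had 61.3%, NBPF 3.25%, SPATA31 1.82%, and PRAMEF and NPIP 0%. With at least 10% of the body as the limit, RS peaks marked 17 members, PRO peaks 5 and DiffBind regions 14. The shares of other coding genes that passed this limit were 3.56%, 0.449% and 4.03%. The TBC1D3 copies, whose gene models overlap each other, gave 11 of these RS members and 11 of these DiffBind members. Among the 72 members that are not TBC1D3 copies, the counts were 6 for RS, 5 for PRO and 3 for DiffBind.

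**Figure D1:**
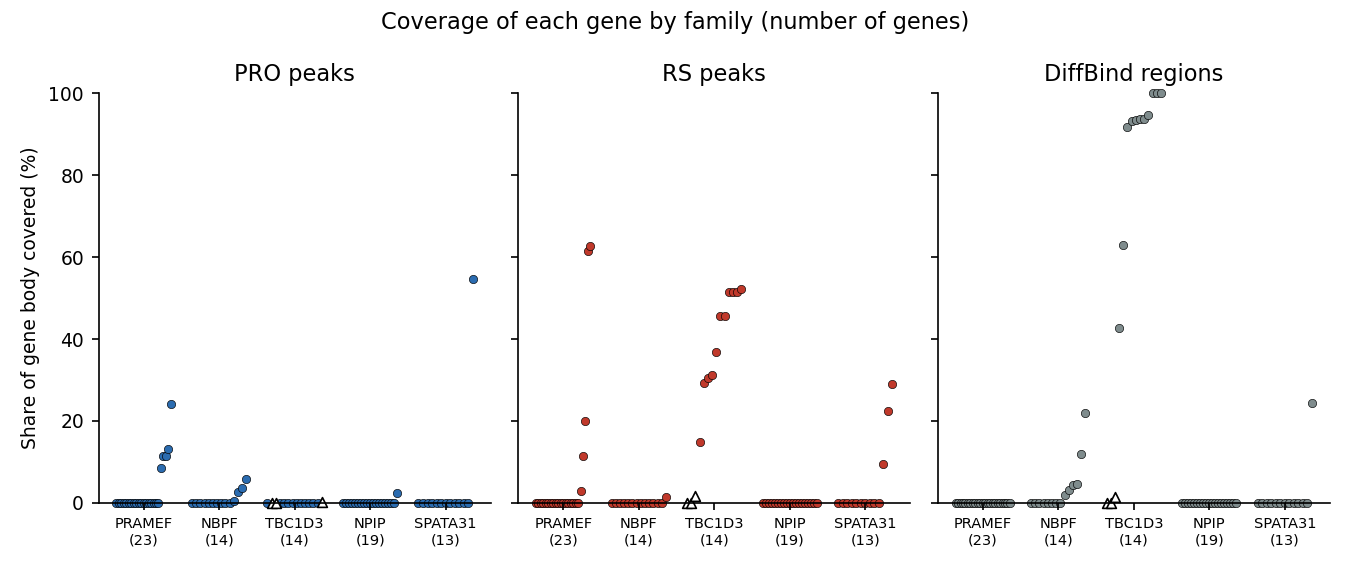
Share of the gene body covered (%, vertical axis) by PRO peaks, RS peaks and DiffBind regions, 1 point per gene, with genes ordered by value within each family and the number of genes in brackets. White triangles are TBC1D30, TBC1D31 and TBC1D32. The 11 TBC1D3 copies all lie above 0 in RS and DiffBind and at 0 in PRO, while all 19 NPIP genes lie at 0 in RS.

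Among the 5 families, only the TBC1D3 copies had RS peaks called over every gene model. The copies are nearly identical in sequence, so which of them gave the signal behind each call is uncertain. The 11 gene models overlap each other at 5 loci, because models made on a newer assembly were mapped onto GRCh37, so their values are not independent. TBC1D3B (chr17:34493063-34503996, 45.7%) and TBC1D3E (45.7%) share a locus, as do TBC1D3I (chr17:34580902-34592039, 30.5%) and TBC1D3D (31.1%). TBC1D3K (chr17:36283960-36294915) and TBC1D3F each had 51.5% of the body in RS peaks. TBC1D3L (chr17:36337711-36348621) had 36.9% and TBC1D3, which contains it, 29.3%. TBC1D3H had 51.5% and TBC1D3C 52.2%, and the long model TBC1D3G (chr17:34745936-34808104), which spans them, had 14.8%. All had 0% in PRO peaks. In DiffBind regions the models had from 42.7% (TBC1D3G) to 100% (TBC1D3K, TBC1D3F and TBC1D3L) of the body.

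To count copies by sequence and not by gene model, the body of TBC1D3K was aligned to chromosome 17. Of 14 matches that covered at least 50% of it, 6 lay in members, since TBC1D3G contains a copy of its own at chr17:34797172-34808103. These 6 were 10932 to 10956 bp long and differed from each other at few positions, with identities between 99.08% and 99.9%. RS peaks covered 12.8% of the copy in the 5′ part of TBC1D3G, 31.1% at TBC1D3I/D, 37.1% at TBC1D3L, 45.7% at TBC1D3B/E, 51.5% at TBC1D3K/F and 51.7% at TBC1D3H/C. DiffBind regions covered between 92.7% and 100% of each. Copies of the same gene that are nearly identical thus had RS shares from 12.8% to 51.7% but DiffBind shares within a narrow range.

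The remaining 8 matches were less similar to TBC1D3K, and their shares are over the match, which can run past the annotated pseudogene. TBC1D3P1 (identity 97.7%) had 7.63% in RS peaks and 54.3% in DiffBind regions, and the match at TBC1D3P2 (98.1%) had 0% and 12.0%, with 0% of the annotated pseudogene itself in either list. At TBC1D3P4 (91.0%) and TBC1D3P3 (90.9%) RS peaks covered 0%, and DiffBind regions 30.2% and 43.2%. USP6, a gene of ubiquitin removal whose 5′ part came from TBC1D3, had 0% in all 3 lists over its match (91.4%). The matches at TBC1D3P5 (85.9%), at an unnamed pseudogene (86.1%) and at TBC1D29P (87.9%) had 0% in PRO peaks and DiffBind regions, and only the last had bases in an RS peak (3.34%). The 6 copies in members thus had higher identity to TBC1D3K and higher shares in both lists than the other 8, and the relation was not tested.

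Along the gene, RS peaks lay mostly in the 5′ part. In the first 2500 bp from the start, between 4.10 and 5.60 of the 6 copies were in an RS peak on average in each step of 500 bp. A second high step lay from 5000 to 5500 bp (5 copies). From 7000 to 7500 bp and from 10000 bp to the end, 0 copies were in an RS peak. Only 3.10% of positions were in an RS peak in all 6 copies, and 19.1% were so in none. DiffBind regions covered 78.3% of positions in all 6. Of the 11 gene models, 10 had RS bases within 2000 bp of the start, the exception being TBC1D3.

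**Figure D2:**
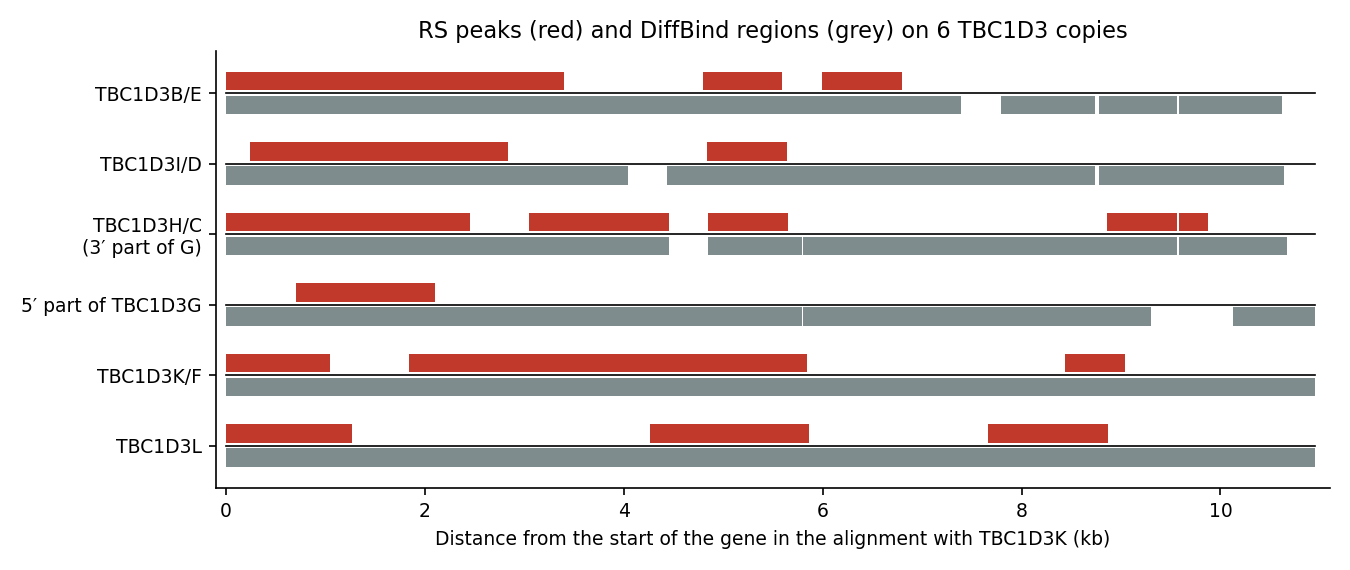
RS peaks (red) and DiffBind regions (grey) on the 6 copies of TBC1D3, against the distance from the start of the gene in kb after alignment with TBC1D3K. Each black line is 1 copy. RS peaks lie near the 5′ end in every copy and near 5 kb in 5 copies, and DiffBind regions cover at least 92.7% of each copy.

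RS peaks and DiffBind regions were denser within these genes than beside them, although the DiffBind regions of TBC1D3K/F and TBC1D3L ran on past both ends. In the 50 kb on either side of the TBC1D3 copies, RS peaks covered 1.28% of bases and DiffBind regions 6.18%, against 25.3% and 61.3% inside. These flanks include unknown bases of the assembly, a run of which lies 20087 bp from TBC1D3G, so their shares are somewhat lowered. Of 12 other coding genes within 100 kb, 0 had a base in any list. Among them were the chemokine genes CCL3L3, CCL4L1, CCL3L1 and CCL4L2, which lie between the copies and are themselves duplicated. Between 77.8% and 90.0% of their 75-base windows had another exact copy in the genome. All 17 RS peaks over the TBC1D3 copies lay in DiffBind regions, compared with 44.9% of RS peaks on chromosomes 1 to 22. Of 11 DiffBind regions over the copies, 9 met an RS peak and 0 met a PRO peak.

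The 3 genes that share the start of the symbol, but are not copies of TBC1D3, differed from the copies. TBC1D30 (chr12:65153264-65274813) and TBC1D31 (chr8:124054208-124164393) had 0% in each list. TBC1D32 (chr6:121400640-121655891), a gene of cilia, was covered over 1.73% by RS peaks, 0.157% by PRO peaks and 1.45% by DiffBind regions. Its 4 RS peaks held 0 repeated windows.

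PRAMEF genes, which lie together on chromosome 1, were marked at single genes and not across the array. PRAMEF11 (chr1:12884468-12891264) was covered over 62.8% by RS peaks, in 4 peaks spread over its length, and over 0% by PRO peaks. PRAMEF26 (chr1:13216356-13219581) had 61.4% in RS and 24.2% in PRO, in peaks that both reached across its start. PRAMEF9 had 20.0% in RS and 0% in PRO, and PRAMEF15 had 11.4% in each. In PRAMEF4 the shares were 2.89% in RS and 8.59% in PRO. PRAMEF6 (13.2%) and PRAMEF14 (11.5%) were in PRO peaks alone. The remaining 16 of 23 genes, up to PRAMEF20 with a body of 10897 bp, were in no list. Peaks thus marked 5 genes in each state, and 3 genes in both.

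The position of PRAMEF peaks within the gene varied. PRO peaks began 1424, 1428 and 1510 bp after the start in PRAMEF4, PRAMEF15 and PRAMEF14, but 7005 bp after it in PRAMEF6 and at -20 bp in PRAMEF26. RS peaks began at 425 and 2425 bp in PRAMEF9, at 2628 bp in PRAMEF15, at 5224 and 5824 bp in PRAMEF4 and at -20 bp in PRAMEF26. The 4 RS peaks of PRAMEF11 began between -537 and 5463 bp. The PRO and RS peaks of PRAMEF15 did not overlap. None of the 10 RS peaks and 5 PRO peaks over PRAMEF genes touched a DiffBind region, although 44.9% of RS peaks and 11.7% of PRO peaks on chromosomes 1 to 22 did. In the 50 kb flanks RS peaks covered 2.50% of bases, PRO peaks 0.539% and DiffBind regions 0.893%, compared with 6.75%, 3.11% and 0% in the bodies. Runs of unknown bases in the assembly were counted in the flanks, which lowers the flank shares. PRAMEF26, for example, lies 331 bp from such a run.

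Among the SPATA31 coding genes, RS and PRO peaks lay in the A subgroup alone. The pseudogenes SPATA31E3P and SPATA31E2P, described at the end, also had RS peaks and larger RS shares than any of these genes. Of 7 SPATA31A genes, 3 had RS peaks: SPATA31A6 (chr9:43624507-43630730, 28.9%), SPATA31A4 (chr9:41321107-41327364, 22.4%) and SPATA31A1 (9.55%). In each of these the RS peak lay past the middle of the gene, beginning 3529, 3763 and 4335 bp after the start, and 100% of the RS bases lay in exons, which make up 67.5% of SPATA31 bodies. SPATA31A6 was also the only SPATA31 gene with a PRO peak and the member with the largest share in PRO peaks (54.7%), with 1 PRO peak that lay inside its RS peak and a longer one of 2401 bp nearer the start. SPATA31D4 had 24.4% in a DiffBind region and 0% in both peak lists. The other 9 genes, among them SPATA31C2 with a body of 9171 bp, were in no list.

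NBPF genes showed a different combination. DiffBind regions touched 6 of 14 genes (42.9%), against 18.0% of other coding genes. The largest shares of the body were in NBPF1 (chr1:16888814-16940057, 21.9%) and NBPF9 (11.8%). RS peaks touched NBPF10 alone (1.47% of its body), against 20.8% of other coding genes. NBPF bodies are long, with a median of 47498.5 bp against 27710 bp for other coding genes, and the part of length in these counts was not tested. NBPF1, NBPF10, NBPF14 and NBPF20 had 5.86%, 2.68%, 3.61% and 0.412% in PRO peaks. Of 16 DiffBind regions over NBPF genes, 6 met a PRO peak (37.5%) and 0 met an RS peak. On chromosomes 1 to 22 a PRO peak was overlapped by 1.44% of DiffBind regions and an RS peak by 73.9%. The remaining 10 regions overlapped neither. In NBPF1 there were 6 DiffBind regions, of which 3 overlapped a PRO peak. Which state had more signal there cannot be read from the lists. The study reports that, over the genome, the great majority of its differential regions were more enriched in RS. Whether the NBPF regions follow this is not given in the lists. NBPF12, with 94199 bp, was the longest NBPF gene in no list.

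NPIP genes had no base in RS peaks or DiffBind regions. Their single peak was a PRO peak of 1401 bp in NPIPB5 (chr16:22490442-22547856), which covered 2.44% of its body. In PRO this made 5.26% of NPIP genes and 0.258% of their bases, against 4.02% and 0.0555% for other coding genes. All 7 NPIPA genes and 11 of 12 NPIPB genes had 0% in all lists, with NPIPB2 (49385 bp) the longest. The 50 kb flanks of NPIP genes held RS peaks over 0.586% of bases and DiffBind regions over 0.937%, against 0.982% and 1.05% of the bodies of other coding genes.

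**Figure D3:**
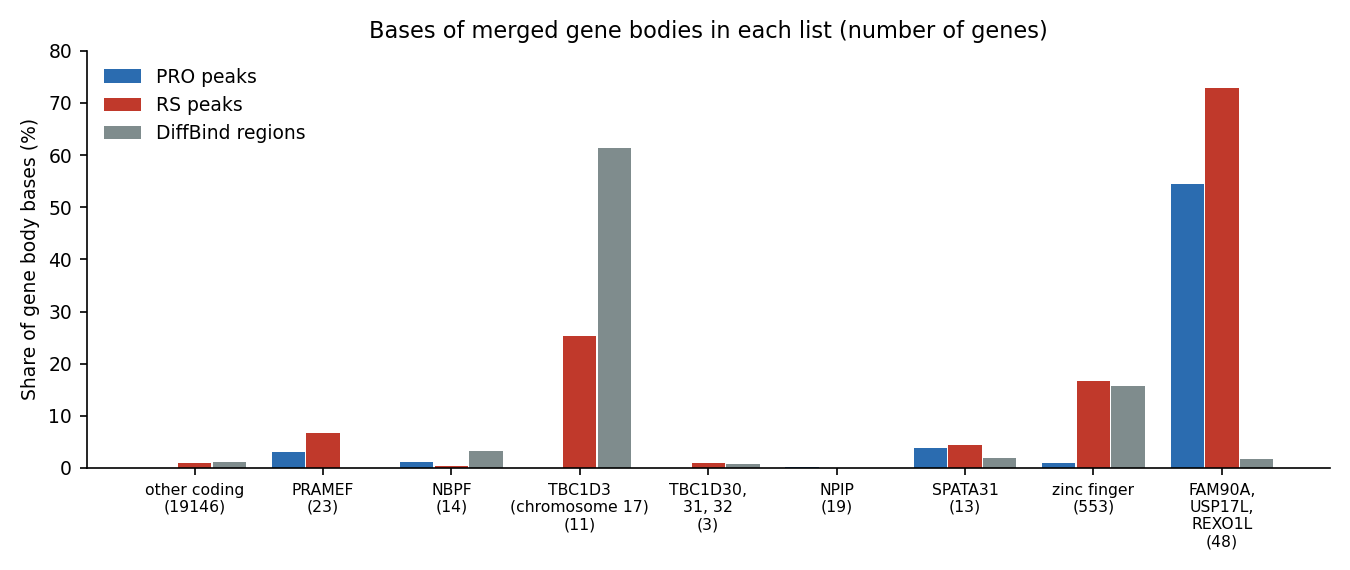
Share of the bases of merged gene bodies (%, vertical axis) in PRO peaks (blue), RS peaks (red) and DiffBind regions (grey) for each family, for other coding genes and for zinc finger and macrosatellite genes (FAM90A, USP17L, REXO1L), with the number of genes in brackets. The TBC1D3 copies stand at 25.3% in RS and 61.3% in DiffBind, and NPIP genes at 0% in both.

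The amount of repeated sequence was then measured, with 1 window of 75 bases, about the read length of the study, in each 200 bp of the genome. A window counted as repeated when the same 75 bases occurred at least once more on either strand. Counted over gene models, 7005 of 10947 windows in member bodies (64%) were repeated, against 2.66% in other coding genes. Without TBC1D30, TBC1D31 and TBC1D32 the share was 81.3%. By family the share was 89.2% in the TBC1D3 copies, 85.3% in NPIP, 79.6% in PRAMEF, 78.0% in NBPF and 71.7% in SPATA31. Of 6693 distinct repeated windows, 87.2% had at least 1 other copy in a member of the same family. This share was 56.4% in the TBC1D3 family, with TBC1D30, TBC1D31 and TBC1D32 counted, and between 85.7% and 97.1% in the others. NPIP genes and TBC1D3 copies, at opposite ends of the RS order, were thus the most repeated families.

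Across members the share of repeated windows and the RS share were hardly related, with a Spearman's rho of 0.079 over 83 genes and -0.0722 over the 72 genes that are not TBC1D3 copies. These genes share sequence and peaks, so the values are a description. Among the 60 members with at least 50% of windows repeated that are not TBC1D3 copies, 8 had an RS peak (13.3%), 10 a PRO peak (16.7%) and 6 a DiffBind region (10.0%), and RS peaks held 0.770% of their bases. Among 317 other coding genes with as many repeated windows that belong to none of the families listed for comparison, 64 had an RS peak (20.2%), 20 a PRO peak (6.31%) and 42 a DiffBind region (13.2%), and RS peaks held 1.61% of their bases. Of 6908 other coding genes with 0 repeated windows, 5.46% had an RS peak, with 0.890% of bases covered. These genes were shorter, with a median body of 9069.5 bp against 12536.5 bp for the 60 members, and the part of length in these counts was not tested.

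**Figure D4:**
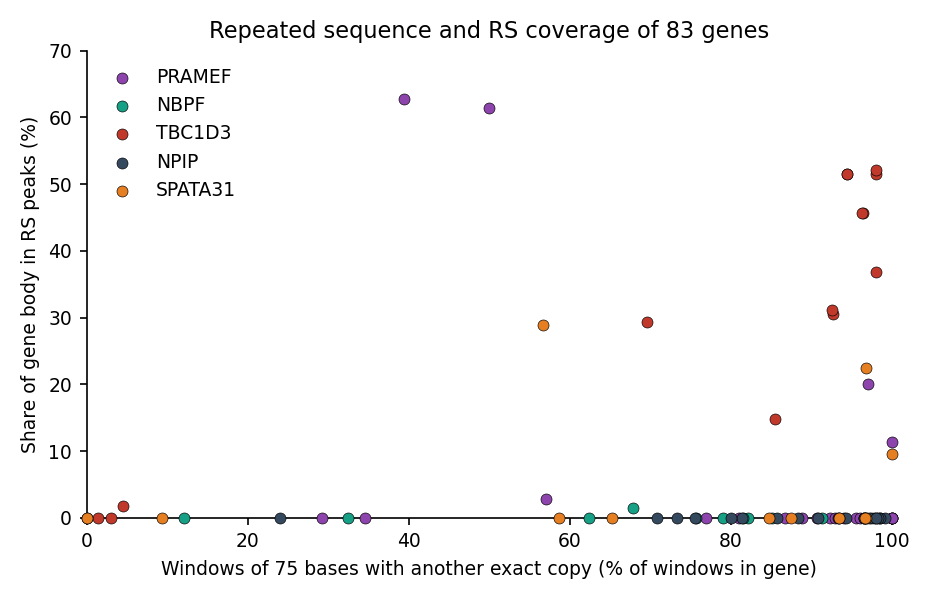
RS coverage of the gene body (%, vertical axis) against the share of its 75-base windows with another exact copy in the genome (%, horizontal axis), 1 point per gene, coloured by family. Genes with nearly all windows repeated range from 0% to 52.2%, and the largest RS shares, in PRAMEF11 and PRAMEF26, belong to genes with 39.4% and 50.0% of windows repeated.

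Windows themselves were compared in the same way. In the TBC1D3 copies RS peaks held 135 of 491 repeated windows (27.5%) and 11 of 85 windows that occur once (12.9%). In PRAMEF genes the order was reversed, with 23 of 503 repeated windows (4.57%) and 20 of 129 single windows (15.5%). These single windows lay mostly in the RS peaks of PRAMEF11 and PRAMEF26, and the windows in the RS peaks of PRAMEF9 and PRAMEF15 were all repeated. SPATA31 had 17 of 311 (5.47%) and 2 of 123 (1.63%), and NBPF 4 of 2995 (0.134%) and 7 of 845 (0.828%). In NPIP genes, 0 of 2310 repeated and 0 of 397 single windows lay in RS peaks. Other coding genes had 3.28% of repeated and 0.920% of single windows in RS peaks. RS peaks of the marked families thus held windows that occur once as well as repeated ones. In the TBC1D3 copies, SPATA31 and NBPF, every RS peak also held a repeated window. The single windows there are therefore not separate from repeated sequence. In PRAMEF, RS peaks without a repeated window held 0.158% of bases.

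**Figure D5:**
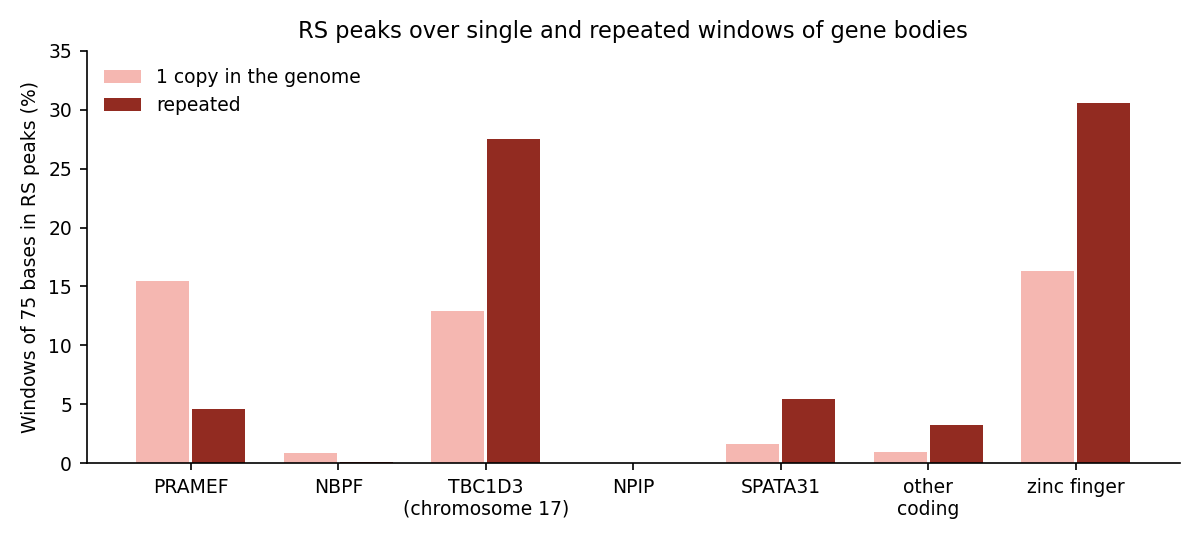
Windows of 75 bases in RS peaks (%, vertical axis), for windows that occur once in the genome (light) and repeated windows (dark) of gene bodies. Repeated windows are higher in the TBC1D3 copies (27.5% against 12.9%) and lower in PRAMEF (4.57% against 15.5%). The single windows of PRAMEF in RS peaks lie mostly in PRAMEF11 and PRAMEF26.

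Where a repeated window lay in a peak, its other copies were often not. For 135 repeated windows of the TBC1D3 copies in RS peaks, 80.7% had at least 1 other exact copy in an RS peak, but on average 48.9% of the other copies lay in one. In DiffBind regions the corresponding values over 336 windows were 97.6% and 85.9%. In PRAMEF genes 12 of 23 RS windows had another copy in an RS peak (52.2%), with 33.7% of other copies on average, and in SPATA31 genes 11 of 17 (64.7%), with 17.1%. For repeated windows outside RS peaks, the average share of other copies in an RS peak was lower. It was 13.9% in the TBC1D3 copies, 2.93% in PRAMEF and 4.11% in SPATA31. The study counts uniquely aligned reads for each library, but whether the ChIP-seq calls used these reads alone is not given in the sources used here. Therefore the copy behind a peak in repeated sequence is uncertain, and the part of read placement in these results was not tested beyond these values.

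Leaving out every region that holds a repeated window removed most of the coverage. RS peaks then overlapped 2 of 83 members, PRO peaks 2 and DiffBind regions 2, and the RS share of bases was 0.216% in place of 2.27%. After the same step, PRO peaks overlapped 3.21% of the other coding genes, RS peaks 18.2% and DiffBind regions 15.4%. Their shares of the bases of those genes were 0.0339%, 0.733% and 0.738%. For the members these shares of bases were 0.0564%, 0.216% and 0.220%. The TBC1D3 copies had 0% in every list. The members still overlapped by RS peaks were 1 PRAMEF gene, at 0.158% of the bases of that family, and TBC1D32. A region was dropped for 1 repeated window, and 30 of the 36 RS peaks over members held one, so the step removes most peaks in these genes by construction.

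Families with as much repeated sequence also differed from each other. In the macrosatellite genes FAM90A, USP17L and REXO1L, with 78.8% of windows repeated in 48 genes, RS peaks held 72.8% of bases, PRO peaks 54.4% and DiffBind regions 1.67%. SPDYE genes, with the same share of repeated windows in 16 genes, had 0% in every list. GOLGA6 genes (83.7% of windows repeated in 15 genes) were covered over 5.42% by RS peaks, 0% by PRO peaks and 11.0% by DiffBind regions. The TBC1D3 copies, at 25.3%, 0% and 61.3%, shared with GOLGA6 the combination of RS and DiffBind coverage with none in PRO. GOLGA8 genes (0.983%, 0% and 4.50%) had it too, as did NUTM2 and ANKRD36 genes at lower RS shares. A PRO peak is rare in any case, being found in 4.02% of other coding genes. Zinc finger genes, with 3.58% of windows repeated in 553 genes, were covered over 16.7% by RS peaks, 0.996% by PRO peaks and 15.8% by DiffBind regions. Counted by gene, 64.4% of them had an RS peak and 30.6% a PRO peak. Among 150 genes of the duplicated families listed for comparison, without the macrosatellite genes, 33 had an RS peak (22%), 10 a PRO peak (6.67%) and 24 a DiffBind region (16%), and RS peaks held 1.07% of bases. These shares were near those of all other coding genes (20.8%, 4.02%, 18.0% and 0.982%). None of these comparisons was tested.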

How the data were processed

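H4K20me3 ChIP-seq was analysed in 4 samples, PRO and RS cells with 2 antibodies each. Reads were mapped by the authors (Bowtie2 2.1.0, hg19, single-end), who called domains with SICER 1.1 in windows of 200 bp against a histone H4 ChIP, intersected the domains of both antibodies and called differential regions with DiffBind 1.8.3 (Trim Galore 0.3.0 and Picard 1.98 are also named in the submitters' processing notes). The deposited lists hold positions in bases on hg19, as the authors gave them, with no score, and 0 columns were left unused. The DiffBind list holds fewer regions than the study describes, so a gene without a region here may have one in a longer list. GRCh37 shares its coordinates with hg19 on these chromosomes, and coordinates are printed 1-based.

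Overlap was counted from 1 shared base of the gene body, and percentages of bases used merged bodies. Other coding genes were all 19146 coding genes on chromosomes 1 to 22 that are not members. Repeated windows were counted over the whole GRCh37 assembly with numba 0.67.0, and TBC1D3 copies were found with BLAST+ 2.17.0. Both the window count and the coverage were checked on simulated data. As each state has 1 list, no test was made. Genes named are those with at least 10% of the body in RS peaks or DiffBind regions or with any base in PRO peaks, and the longest gene of each family in no list. SPATA31A1, TBC1D31 and all other genes outside this rule were named after their values were seen. The members and lists were chosen with earlier results of these data known. Alternatives changed the overlap, the regions, the gene bodies and the families included.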

Additional observations from a re-analysis of the deposited data

How the results depend on the processing

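Counts of members overlapped started from 12 for PRO peaks, 21 for RS peaks and 19 for DiffBind regions. Leaving out regions with a repeated window moved them most, to 2, 2 and 2. The PRO count was 5 with an overlap of at least 10% of the body, 5 with regions of at least 1000 bp and 7 without the PRAMEF family. Without the TBC1D3 family the RS count was 9 and the DiffBind count 7. All other alternatives left the counts within 1.5 times. Shares of member bases, at 0.817% for PRO, 2.27% for RS and 4.75% for DiffBind, fell to 0.0564%, 0.216% and 0.220% without regions with a repeated window, and were 0.460%, 1.89% and 4.65% with regions of at least 1000 bp. Widening the bodies by 2 kb gave 0.723% for PRO. Without PRAMEF the shares were 0.670%, 1.98% and 5.05%, without NBPF 0.675%, 3.39% and 5.59%, without TBC1D3 1.11%, 0.959% and 1.74%, without NPIP 1.01%, 3.04% and 6.37%, and without SPATA31 0.685%, 2.18% and 4.87%. Leaving out TBC1D30, TBC1D31 and TBC1D32, chosen after seeing the data, gave 1.03%, 2.67% and 5.93%. Counting overlapping gene models as 1 locus, also chosen after seeing the data, gave 12, 15 and 13 of 77 loci.

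No paired analysis was possible because the lists of each state join both antibodies and give no value for a single sample, and leaving out each replicate was not run for the same reason. The lists give no read depth, so its effect was not tested.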

Other observations

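Pseudogenes whose symbol starts with one of the 5 names were looked at after the coding genes. Of 34, RS peaks overlapped 4 (11.8%), PRO peaks 2 (5.88%) and DiffBind regions 8 (23.5%), against 8.14%, 1.27% and 5.65% of 14047 other pseudogenes on chromosomes 1 to 22. These were shorter, with a median of 663 bp against 6265 bp, and the difference was not tested. On chromosome 15, SPATA31E3P had 88.7% of its body in RS peaks and 0% in DiffBind regions, whereas SPATA31E2P had 52.5% in RS peaks and 73.6% in DiffBind regions. Of 8 TBC1D3 pseudogenes, counted by their annotated bodies, 5 had a DiffBind region and 0 a PRO peak. The largest share was that of TBC1D3JP, which lies inside TBC1D3L and had 100% in DiffBind regions and 40.9% in RS peaks. TBC1D3P7 had 15.1% in a DiffBind region with 0% of its windows repeated.

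Other duplicated families on the list for comparison also differed from each other. RS peaks overlapped 10 of 13 POTE genes (76.9%) and 7 of 15 GOLGA6 genes (46.7%), against 20.8% of other coding genes. POTE bodies are long, with a median of 36262 bp, and RS peaks held 3.28% of their bases. All 4 NOTCH2NL gene models, which share 82.9 kb and are not independent, had an RS peak, with 2.66% of bases covered. No RS peak lay in 5 TRIM49 genes (73.2% of windows repeated), 4 FAM72 genes (82.1%), 4 LRRC37 genes (66.2%) or 40 DEFB genes (29.8%). The differences between families were not tested.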
